A study of Mus musculus with 8 samples.

Results

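Vit, Prom2, Fhod3, Kcnb2, Tns4, Hs3st6, Twist2, Cnmd and Lbhd2 are 9 of the 55487 genes counted in single cells of the mouse thymus, and they were named as a set for a gain or a loss in thymic epithelial cells (TEC) between 1 and 16 weeks of age. The age contrast itself thus chose them, so their levels at the 2 ages are given below as a description, without a test. The question here was which TEC subtypes and how many cells carried each gene at each age. Over all TEC, 6 of the 9 were more than 4-fold higher at 16 weeks (Vit, Prom2, Fhod3, Kcnb2, Tns4 and Hs3st6) and 1 was more than 4-fold lower (Twist2). Hs3st6 fell below 4-fold under other scalings, when cells were thinned to equal depth, and without 1 of the 1-week libraries. Cnmd was lower by less than 4-fold. Lbhd2, listed as lost, was slightly higher over all TEC, a direction that turned when cells were thinned to equal depth, and was more than 4-fold lower in 1 of the 5 TEC classes that could be compared.

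C57BL/6 thymic stromal cells were analysed by CITE-seq, in which each cell yields both its mRNA counts and the counts of oligonucleotide tags on bound antibodies, at 1 week and at 16 weeks, with no other treatment or genotype in the labels. Cells were depleted of CD45-positive haematopoietic cells. Those negative for CD45 and for Ter119, an erythroid marker, were sorted into an EpCAM1-positive and an EpCAM1-negative part that were mixed. The recovered shares of cell types were therefore partly set by the sort. Thymi of several mice of an age went into 1 tube, which was loaded on 2 wells, and each well gave 1 mRNA library and 1 library of the 27 tags. The wells of an age (replicates 1 and 2) were therefore technical repeats of a single sample, no test between ages was possible, and all intervals below cover counting error only.

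The 4 mRNA libraries held 1846 and 1430 cells at 1 week and 1939 and 4738 cells at 16 weeks, of which 1084, 846, 1118 and 2793 were called TEC. An epithelial cluster of 232 cells led by Ccl25 and Tbata was left out of TEC as shallow. It held 116 and 101 cells of the 1-week wells and 3 and 12 of the 16-week wells. TEC held a median of 9111 unique molecular identifiers (UMIs, counted transcript molecules) per cell at 1 week and 6221 at 16 weeks, so a cell of the older mice had less chance of showing any given transcript. The main shares of cells are therefore also given after every cell was thinned to 2000 UMIs. Levels are counts per 1000000 UMIs of the same cells (CPM). In sums over cells, fewer carrying cells and less RNA per carrying cell cannot be told apart, which is why the number of carrying cells (cells with at least 1 UMI) stands beside the levels. 35 cells had a barcode found in more than 1 library, and the counts of genes past 4-fold among the 9 and their classes were the same without them.

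TEC provide the niche in which T cells mature. Cortical TEC (cTEC) drive the early steps and positive selection, and carry Psmb11 and Prss16. Medullary TEC (mTEC) display self antigens, and mature mTEC carry the transcriptional regulator Aire. Intertypical TEC, rich in Ccl21a and Krt14, share features of immature medullary cells and of progenitors, and the medulla also holds mTEC that resemble peripheral cell types such as tuft cells or microfold cells. In the young thymus cTEC are prominent, and with age the medullary and intertypical compartments take a larger share.

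The 9 genes have diverse functions. Vit encodes vitrin, a matrix protein with von Willebrand factor A domains, related to cochlin. Prom2 encodes prominin 2, a membrane glycoprotein of epithelial cell protrusions. Tns4 encodes a short tensin of focal adhesions that binds integrin tails, and Fhod3 a formin that assembles actin filaments and is best known from heart muscle. Kcnb2 encodes a voltage-gated potassium channel subunit (Kv2.2). Hs3st6 encodes an enzyme that adds a sulfate to heparan sulfate chains. Twist2 encodes a basic helix-loop-helix transcription factor of mesenchyme and dermis. Cnmd encodes chondromodulin, an inhibitor of vessel growth known from cartilage. Lbhd2 encodes a protein with an LBH domain.

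Positions are in GRCm38 (GENCODE M21 genes). Vit lies at chr17:78508064-78627408, Prom2 at chr2:127526473-127541467, Kcnb2 at chr1:15287254-15723750, Tns4 at chr11:99065678-99089306 and Hs3st6 at chr17:24752988-24758684. Twist2 lies at chr1:91801461-91848028, Cnmd at chr14:79637690-79662170 and Lbhd2 at chr12:111406809-111412090. Prom2, Tns4, Hs3st6, Cnmd and Lbhd2 overlap no other annotated gene. Vit overlaps 1, Twist2 overlaps 2 (Gm29100, on the opposite strand, and Gm29101), and Kcnb2 and Fhod3 overlap 3 each, and how reads were split among overlapping genes is not visible in the counts.

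RefSeq promoter sequence (GRCm38.p6) was at hand for 4 of the 9 genes. The 250 bases before the start of Twist2 and Cnmd are shown because both genes were carried by cTEC at 1 week and had 1 and 2 UMIs there at 16 weeks. CpG dinucleotides are in capitals. Twist2, on the plus strand at chr1:91801211-91801460, has 23 CpG, and 86.7% of the 32851 promoters of the same length have fewer. Cnmd, on the minus strand at chr14:79662184-79662433, has 0, against 12 for Prom2, 7 for Lbhd2 and a median of 6 (quartiles 2 and 16) over all promoters.
Twist2: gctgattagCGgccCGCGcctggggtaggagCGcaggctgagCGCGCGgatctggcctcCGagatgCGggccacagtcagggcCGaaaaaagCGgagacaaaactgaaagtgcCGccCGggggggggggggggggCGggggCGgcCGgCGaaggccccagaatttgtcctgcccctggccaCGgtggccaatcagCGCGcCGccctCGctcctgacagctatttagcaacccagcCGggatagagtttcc
Cnmd: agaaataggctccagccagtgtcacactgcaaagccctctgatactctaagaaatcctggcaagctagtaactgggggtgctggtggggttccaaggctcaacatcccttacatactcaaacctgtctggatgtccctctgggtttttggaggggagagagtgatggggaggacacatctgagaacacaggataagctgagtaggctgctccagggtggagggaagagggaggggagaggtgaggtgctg
Known motifs were searched on both strands of the 4 promoters, in a window of 300 bases that includes 50 bases after the start. The TATA box, as the letters TATAAA, was in none of the 4 and is in 13.6% of all promoters of that length. The core of the sites of FOXN1, the transcription factor that TEC depend on, as the letters GACGC, was in Cnmd alone, 35 bases after the start, and is in 27.2% of all promoters. The AP-1 motif, as the letters TGANTCA, was in none of the 4 and is in 7.81%.

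**Figure D1:**
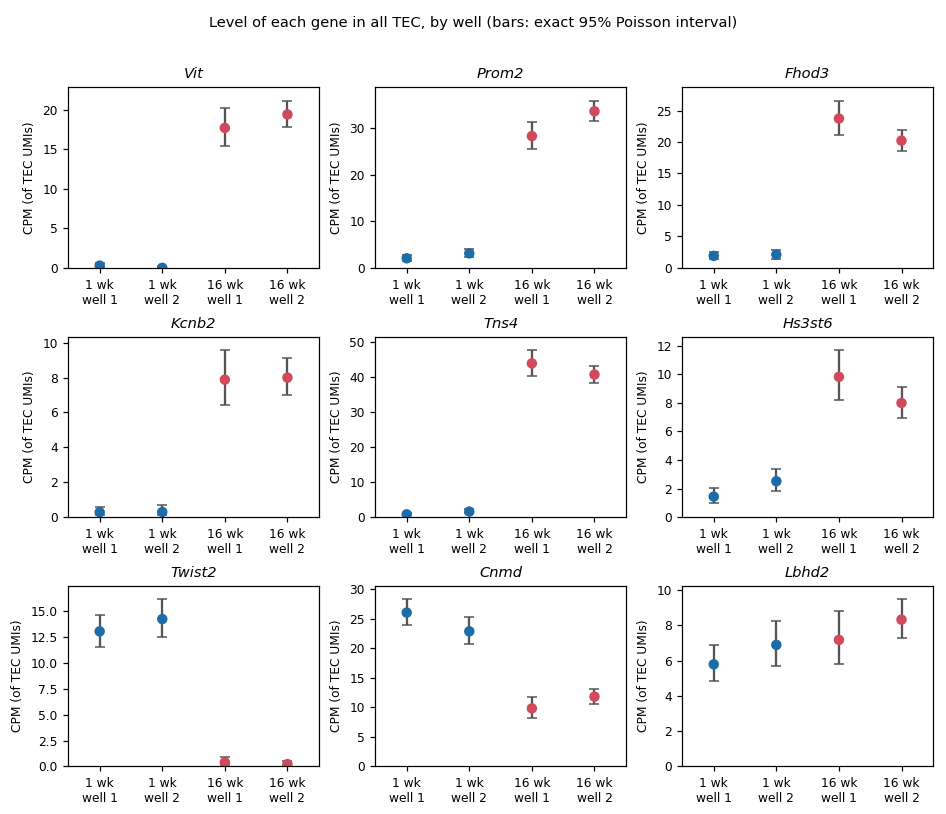
CPM over all TEC (linear axes that start at 0, 1 panel per gene) in the 4 wells, with exact 95% Poisson intervals that cover counting error only. For Vit, Prom2, Fhod3, Kcnb2, Tns4 and Hs3st6 both 16-week wells lie above both 1-week wells, for Twist2 and Cnmd below them, and for Lbhd2 the 4 wells lie between 5.79 and 8.33 CPM.

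Over all TEC, Vit had 0.278 and 0 CPM in the 1-week wells and 17.7 and 19.4 in the 16-week wells, from 6 UMIs at 1 week and 761 at 16 weeks. This was a log2 difference of 6.93 (95% interval 5.80 to 8.38), or 122-fold, and the second highest of the 22034 genes with at least 20 UMIs over all TEC. Tns4 had 0.787 and 1.58 at 1 week and 43.9 and 40.7 at 16 weeks, 36.7-fold higher. Kcnb2 had 0.278 and 0.292 against 7.88 and 8.0, 28.0-fold higher.

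Prom2 went from 2.04 and 3.10 CPM to 28.2 and 33.6, 12.7-fold higher at 16 weeks. Fhod3 had 1.90 and 2.10 at 1 week and 23.7 and 20.2 at 16 weeks, 10.7-fold higher. Hs3st6 had the smallest gain of the 6, with 1.44 and 2.51 against 9.83 and 8.0, or 4.49-fold, and it no longer passed the 4-fold limit with TMM or DESeq2 size factors, after thinning, or without 1-week replicate 1. In all 6 genes the wells of an age lay closer to each other than to either well of the other age.

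Of the 3 genes listed as lost, Twist2 had 13.1 and 14.3 CPM in the 1-week wells and 0.390 and 0.218 in the 16-week wells, from 526 and 11 UMIs, 49.8-fold lower. Cnmd had 26.1 and 22.9 against 9.83 and 11.8, 2.21-fold lower. Lbhd2 had 5.79 and 6.89 at 1 week and 7.18 and 8.33 at 16 weeks, a log2 difference of 0.34 (0.10 to 0.59) that became -0.27 when every cell was thinned to 2000 UMIs. By the same rule (more than 4-fold, both wells of an age above both of the other), 14.0% of all 22034 genes tested over TEC were higher at 16 weeks and 1.58% were lower, and since the 9 were chosen on this contrast nothing is read from their counts. The median gene was 0.33 higher on the log2 scale, and 0.09 with TMM factors. The members just inside and just outside the 4-fold limit were Hs3st6 (2.17 on the log2 scale) and Cnmd (-1.14).

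For the genes past 4-fold the number of carrying cells followed the levels. Vit was found in 6 of the 1930 TEC at 1 week (0.311%) and in 492 of the 3911 TEC at 16 weeks (12.6%), and after thinning in 0.0518% and 4.73%. Tns4 was found in 34 cells (1.76%) and 967 cells (24.7%), and after thinning in 0.363% and 7.67%. Prom2 was found in 66 cells (3.42%) and 888 cells (22.7%), and after thinning in 0.829% and 6.57%. Twist2 was found in 311 cells (16.1%) at 1 week and in 11 cells (0.281%) at 16 weeks, and after thinning in 2.12% and 0.0256%. Lbhd2 was found in 106 cells (5.49%) and 186 cells (4.76%), a lower share beside a higher level at 16 weeks, and after thinning in 1.45% and 1.20%.

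Endothelial cells, 138 at 1 week and 255 at 16 weeks with medians of 6331 and 6686 UMIs, served as cells in which a low share of carriers may stand for free RNA. At 16 weeks 4.31% of them had a Prom2 UMI, 3.92% Tns4, 3.14% Hs3st6, 1.57% Fhod3, 1.18% Vit and 0.392% Kcnb2. At 1 week 3.62% had a Cnmd UMI and 2.17% each a Twist2 or an Lbhd2 UMI, and at 16 weeks 0.392% had an Lbhd2 UMI. Over all TEC these shares were exceeded for each gene at the age of its higher level, and for Hs3st6 the margin was narrow, with 4.93% of TEC. Some members differed with age outside the epithelium too. In fibroblasts Tns4 had 0 UMIs at 1 week and 78 at 16 weeks, at 4.57 and 3.62 CPM in the older wells. With 0 taken as 3, this was 9.71-fold higher, with a lower counting limit of 2.95 on the log2 scale. Prom2 in fibroblasts had 3 UMIs at 1 week and 76 at 16 weeks, a log2 ratio of 3.24 with a counting interval of 1.64 to 5.55. How much of these UMIs was free RNA was not tested.

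The make-up of TEC differed between the ages, so each gene was next read by class. Classes were clusters made without the 9 genes and named from marker lists, and clusters that had too few markers of a list, or more markers of another list among their 10 leading genes, are called by their leading genes. cTEC made up 34.6% and 32.3% of TEC in the 1-week wells and 2.77% and 2.26% in the 16-week wells. Intertypical TEC made up 6.92% and 8.04% against 43.2% and 41.5%, and mature mTEC 5.44% and 4.61% against 15.03% and 16.4%. A cluster led by Fmod and Prelp and another led by Scn1a and Chga held 366 and 275 cells at 16 weeks and 2 and 11 at 1 week. A cluster led by the haemoglobin genes Hbb-bs and Hba-a1, which met all 7 cTEC markers but was led by erythroid genes and is not counted as cTEC here, held 625 cells at 1 week (32.0% and 32.9% of TEC in the wells) and 78 at 16 weeks. Its erythroid markers summed to 1746 CPM in 1-week replicate 1 but to 61.8 in 1-week replicate 2 and 41.2 in 16-week replicate 2, so the high erythroid sum was in 1 well. In both 1-week wells the cluster was shallower than cTEC, with medians of 5285 and 5440.5 UMIs against 37666 and 39107, and cTEC shares and levels are given without it.

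**Figure D2:**
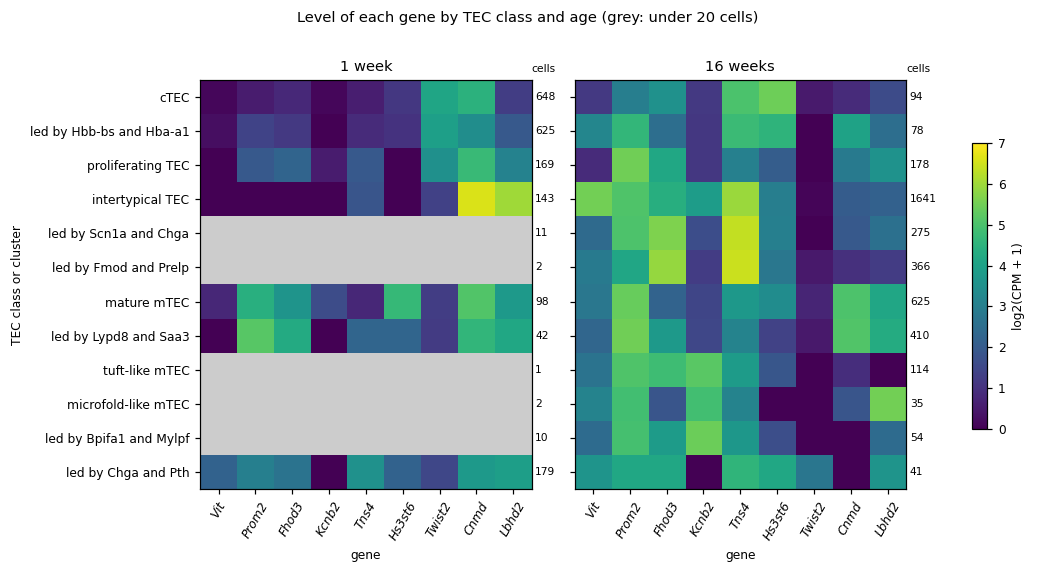
Level of each of the 9 genes (columns) in each TEC class or cluster (lines) at each age, as log2(CPM + 1) by colour, pooled over the 2 wells of an age, with cell numbers at the right and grey for under 20 cells. At 16 weeks Vit is highest in intertypical TEC, Tns4 in the clusters led by Fmod and Prelp and by Scn1a and Chga, and Hs3st6 in cTEC, while Twist2 at 1 week is highest in cTEC and the cluster led by haemoglobin genes.

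Vit was carried mainly by intertypical TEC of the older mice. Of the 492 carriers at 16 weeks, 79.1% were intertypical TEC, a class with 42.0% of the TEC, and they held 84.0% of the Vit UMIs. In the 16-week wells 115 and 274 intertypical TEC carried it, 23.8% and 23.7% of them, at 40.7 and 46.8 CPM, and in both 1-week wells 0 of 75 and 0 of 68 cells did. With the 0 UMIs of 1 week taken as 3, Vit was 28.9-fold higher at 16 weeks, with a lower counting limit of 4.55 on the log2 scale. After thinning the shares of the 16-week wells were 9.52% and 9.93%. Mature mTEC had 5.79 and 5.83 CPM at 16 weeks, and cTEC 1.11 and 1.31.

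Vit was also found outside the epithelium. Fibroblasts had 5.40 CPM at 1 week and 16.7 at 16 weeks. The 6 fibroblast markers summed to 422 to 487 CPM in TEC at 1 week and 827 to 931 at 16 weeks, against 20626 to 33979 in fibroblasts, and all 6 were detected in TEC. Per 1000 fibroblast-marker UMIs, intertypical TEC of 16 weeks had 50.3 Vit UMIs and fibroblasts 0.810, with 2.88 in the fibroblast cluster richest in Vit.

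Tns4 was spread over more classes than Vit. At 16 weeks its level was 93.4 and 81.5 CPM in the cluster led by Fmod and Prelp, where 59.2% and 59.7% of cells carried it (22.3% and 11.03% after thinning), and 77.5 and 82.8 in the cluster led by Scn1a and Chga, and these 2 ranges overlap. The Fmod-led cluster also had the highest fibroblast markers of the TEC classes, at 2056 and 2079 CPM in the 16-week wells, and their part in the levels of Tns4 and Fhod3 there was not tested. Intertypical TEC followed at 61.0 and 61.3, with 29.0% and 29.8% of cells carrying it (8.70% and 10.8% after thinning), and held 50.2% of the Tns4 carriers. In intertypical TEC at 1 week the level was 0.975 and 4.42, from 5 UMIs, so Tns4 was 23.6-fold higher at 16 weeks (log2 4.56, interval 3.33 to 6.19). In cTEC it was 0.502 and 0.477 at 1 week and 36.6 and 28.1 at 16 weeks, 63.6-fold higher, and 48.4% and 42.9% of the 31 and 63 older cTEC carried it (6.45% and 9.52% after thinning). Mature mTEC had 1 UMI at 1 week and 76 at 16 weeks, a log2 ratio of 4.12 with a counting interval of 1.60 to 9.45, or 2.54 with the 1-week count taken as 3. In 16-week replicate 1, 12 of the 32 UMIs lay in 1 cell.

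Fhod3, the formin, shared the Fmod-led cluster with Tns4. There its level was 49.7 and 62.2 CPM at 16 weeks, with 36.9% and 41.4% of cells carrying it (10.7% and 11.8% after thinning). The cluster held 28.2% of Fhod3 carriers and 34.9% of Fhod3 UMIs but 9.36% of the TEC. Scn1a-led cells had 62.4 and 42.0, tuft-like mTEC 31.2 and 25.01, and intertypical TEC 22.4 and 19.0. Intertypical TEC of 1 week had 0 UMIs in both wells. With 0 taken as 3, the level at 16 weeks was 12.9-fold higher, with a lower counting limit of 3.38 on the log2 scale. cTEC had 0.430 and 1.15 at 1 week and 21.1 and 4.57 at 16 weeks, a wide spread between the older wells.

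In mature mTEC the direction of Fhod3 was the opposite. Its level was 5.52 and 21.4 CPM in the 1-week wells and 3.38 and 3.89 in the 16-week wells, a log2 difference of -1.60 (interval -2.58 to -0.58), and the 11 UMIs of 1-week replicate 2 came from 2 cells, 9 of them in 1 cell. In proliferating TEC Fhod3 was 4.45-fold higher at 16 weeks, but 25 of the 26 UMIs of 16-week replicate 1 lay in 1 cell.

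Prom2 was present in some TEC classes at both ages. In the cluster led by Lypd8 and Saa3 it had 45.3 and 24.3 CPM at 1 week and 36.8 and 46.8 at 16 weeks, and in mature mTEC 12.1 and 35.0 against 32.3 and 44.0, and in both classes the wells of the ages overlapped. It had 0 UMIs in the 143 intertypical TEC of 1 week and 27.4 and 34.8 CPM in those of 16 weeks. With 0 taken as 3, Prom2 was 20.9-fold higher there, with a lower counting limit of 4.08 on the log2 scale. In cTEC it was 15.5-fold higher, from 0.287 and 0.668 to 7.76 and 6.53. In proliferating TEC it was 15.1-fold higher, from 2.7 and 3.09 to 44.3 and 43.5, and 46.8% and 34.4% of the older cells carried it (14.9% and 8.40% after thinning). In the Lypd8-led cluster the log2 difference was 0.32, and the contrast between the classes was not tested.

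Kcnb2 was carried by few cells in most classes. Of its 234 carriers at 16 weeks, 60.7% were intertypical TEC and 13.2% were tuft-like mTEC. Tuft-like mTEC had 42.3 and 32.4 CPM, with 31.6% and 25% of the 38 and 76 cells carrying it (7.89% and 5.26% after thinning). The 54 older cells of a cluster led by Bpifa1 and Mylpf had 41.9 pooled over wells, in the range of the tuft-like wells. Intertypical TEC had 9.80 and 15.4 CPM at 16 weeks and 0 UMIs at 1 week. With 0 taken as 3, Kcnb2 was 8.77-fold higher there, with a lower counting limit of 2.82 on the log2 scale. In 1-week TEC, 10 cells carried it. Gm37138, an annotated transcript inside Kcnb2 on the same strand, had the profile most like it over classes and libraries (Pearson r = 0.95, Spearman 0.81, over 34 units).

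Hs3st6 was the member of the gained group with its highest level in cTEC. Its level there was 34.4 and 48.3 CPM in the 16-week wells and 1.79 and 0.382 in the 1-week wells, 36.3-fold higher (log2 5.18, interval 4.58 to 5.83). Carriers were 13 of 31 and 19 of 63 cTEC at 16 weeks and 14 of 375 and 3 of 273 at 1 week. After thinning the older shares were 3.23% and 11.1%. Although cTEC were 2.40% of the TEC at 16 weeks, they held 16.6% of Hs3st6 carriers and 30.3% of its UMIs. The 3 highest cells held 17 of the 31 and 32 of the 74 Hs3st6 UMIs of the older cTEC wells. Both cTEC clusters had the difference: cluster 6 went from 1.65 to 58.2 CPM and cluster 9 from 0.248 to 30.8. In intertypical TEC it was at 7.62 and 6.63 CPM, against 0 UMIs at 1 week, or 4.48-fold higher with 0 taken as 3. The lower counting limit there, 1.84 on the log2 scale, was under 4-fold. Carriers of Hs3st6 in that class were 4.55% and 4.06% of cells, close to the endothelial share of 3.14%. In mature mTEC 34 of the 35 UMIs of 1 week came from 1 well, 30 of them in 1 cell, and 23 of the 32 UMIs of 16-week replicate 1 also lay in 1 cell. The cluster led by haemoglobin genes had 1.13 and 0.902 CPM at 1 week and 31.0 and 20.6 at 16 weeks, in 18 and 60 cells.

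Across the 5 classes with at least 20 cells in each library, 39 pairs of gene and class could be compared, and 14 were more than 4-fold higher and 5 more than 4-fold lower at 16 weeks. By class the counts were 4 higher and 2 lower of 7 in cTEC, 6 and 2 of 8 in intertypical TEC, 3 and 1 of 7 in proliferating TEC, 1 and 0 of 9 in mature mTEC and 0 and 0 of 8 in the Lypd8-led cluster. Among all genes with at least 20 UMIs in the class, the same fold and well limits called 2.63% higher and 0.672% lower in cTEC. The shares were 2.38% and 2.09% in intertypical TEC, 4.6% and 4.66% in proliferating TEC, 1.91% and 0.519% in mature mTEC and 1.03% and 0.609% in the Lypd8-led cluster. The pairs needed only more than 3 UMIs at 1 age, so the bases differ. Hs3st6 in proliferating TEC, for example, was called higher from 0 and 8 UMIs. As the same contrast chose the members, nothing is read from these counts. Without batch correction before clustering, 14 pairs in 2 classes could be compared, of which 8 were higher and 3 lower. Without 1-week replicate 1, 9 of 39 pairs were lower.

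Intertypical and proliferating TEC were made of different clusters at the 2 ages. Cluster 15 held 71.3% of the intertypical TEC of 1 week and 0.975% of those of 16 weeks, while clusters 2, 3, 8 and 14 held most of the older cells, so differences in these classes also compare different clusters. Of the proliferating TEC, cluster 17 held 106 cells at 1 week and 1 at 16 weeks, and cluster 11 held 63 and 177. In cluster 3, which had 34 cells at 1 week and 535 at 16 weeks, Vit had 0 UMIs at 1 week, which allows up to 8.82% of cells with a UMI and a level of up to 12.3 CPM, for counting error only, and 15.7% of cells with a UMI and 44.8 CPM at 16 weeks. The limit says nothing of cells that expressed Vit below detection. Tns4 in cluster 3 had 1 UMI at 1 week and 113 at 16 weeks. In this cluster the level of Hs3st6, at 3.47 CPM at 16 weeks, lay below the limit that 0 UMIs allowed at 1 week.

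Twist2 was found mainly in cTEC at 1 week. cTEC had 15.9 and 17.2 CPM in the 1-week wells, with 128 of 375 and 92 of 273 cells carrying it (34.1% and 33.7%), and 70.7% of all Twist2 carriers of that age were cTEC. The 94 cTEC of 16 weeks held 1 UMI, in 1 cell, a log2 ratio of -5.32 with a counting interval of -10.6 to -2.84. Proliferating TEC had 9.02 and 11.9 CPM at 1 week and 0 UMIs at 16 weeks. With 0 taken as 3, Twist2 was 8.70-fold lower there, with an upper counting limit of -2.77 on the log2 scale. The cluster led by haemoglobin genes had 13.9 and 14.9 at 1 week and 0 UMIs in its 78 cells of 16 weeks. Intertypical TEC had 3 UMIs at 1 week. At 2000 UMIs per cell the shares of cTEC with Twist2 at 1 week were 4.27% and 2.93%.

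Twist2 is known from mesenchyme, and the fibroblasts of these libraries carried it too. They had 22.6 and 18.8 CPM at 1 week and 9.90 and 7.53 at 16 weeks. Fibroblast markers summed to 275 to 313 CPM in cTEC at 1 week and 579 to 685 at 16 weeks, and their part in the level of Twist2 was not tested. Per 1000 fibroblast-marker UMIs, cTEC of 1 week had 56.5 Twist2 UMIs and fibroblasts of 1 week 0.621. cTEC were the deepest of the classes compared, with medians of 38123.5 UMIs per cell at 1 week and 24826.5 at 16 weeks, so their share of carriers is not comparable with that of other classes before thinning.

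Cnmd was concentrated in few cells, as the UMIs per carrying cell show. At 1 week 51 of 375 and 46 of 273 cTEC carried it, with 5.55 and 5.41 UMIs per carrying cell, and the level was 20.3 and 23.8 CPM. At 16 weeks cTEC had 1 UMI in each well, a log2 ratio of -4.73 (interval -7.78 to -2.87). Intertypical TEC had 107 and 85.1 CPM at 1 week, from 13 and 11 carriers, where the 3 highest cells held 71.8% and 70.1% of the UMIs, and 2.40 and 3.42 at 16 weeks, 31.3-fold lower (log2 -4.97, interval -5.48 to -4.49). Mature mTEC had 45.3 and 11.7 at 1 week and 28.5 and 34.02 at 16 weeks, a pooled log2 difference of -0.04 (interval -0.51 to 0.45). The 1-week wells lay on either side of the older ones, and 24 of the 41 UMIs of 1-week replicate 1 lay in 1 cell. In proliferating TEC Cnmd had 40.1 and 11.9 CPM at 1 week and 12.3 and 3.58 at 16 weeks, so the wells of the ages overlapped, and 86 of the 89 UMIs of 1-week replicate 1 lay in 1 cell.

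The cluster led by haemoglobin genes had 12.4 and 6.76 CPM of Cnmd at 1 week and 18.6 and 14.7 at 16 weeks, the latter from 3 and 10 UMIs, so it did not share the lower level of the older cTEC. At 16 weeks most carriers of Cnmd lay in other classes than at 1 week. Of 158 carriers, 39.9% were mature mTEC and 23.4% belonged to the Lypd8-led cluster, while at 1 week 51.3% of 189 carriers were cTEC and 12.7% intertypical TEC. The shares of the classes in TEC differed too. Mature mTEC made up 5.44% and 4.61% in the 1-week wells and 15.03% and 16.4% in the 16-week wells. The Lypd8-led cluster made up 2.03% and 2.36% against 9.57% and 10.8%, and cTEC 34.6% and 32.3% against 2.77% and 2.26%. Within the Lypd8-led cluster the log2 difference of Cnmd was 0.49 (interval -0.21 to 1.28). After thinning, 2.93% and 2.20% of 1-week cTEC had a Cnmd UMI, against 0.725% of endothelial cells.

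Lbhd2 was high in a small group of 1-week intertypical TEC. Its level there was 67.3 and 57.4 CPM, with 16 of 75 and 12 of 68 cells carrying it (5.33% and 5.88% after thinning) and the highest 3 cells holding 63.8% and 65.4% of the UMIs, and at 16 weeks 2.83 and 3.83, 17.8-fold lower (log2 -4.16, interval -4.66 to -3.67). In cTEC the levels were 1.36 and 1.53 against 2.22 and 1.96, a log2 difference of 0.52 whose interval, -1.19 to 1.88, includes 0, and in mature mTEC 12.7 and 16.6 pooled over wells (log2 0.39, interval -0.34 to 1.20). The shares of the classes in TEC differed between the ages, as given above. Intertypical TEC held 49.8% of Lbhd2 UMIs at 1 week, and at 16 weeks mature mTEC held 32.1% and the Lypd8-led cluster 29.6%. In that cluster 1 cell held 21 of the 30 UMIs of 16-week replicate 1 and another 21 of the 65 of replicate 2. The 35 older microfold-like mTEC had 44.3 CPM. In cluster 15, which held most 1-week intertypical TEC, 21.6% of cells carried Cnmd and the same share Lbhd2.

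**Figure D3:**
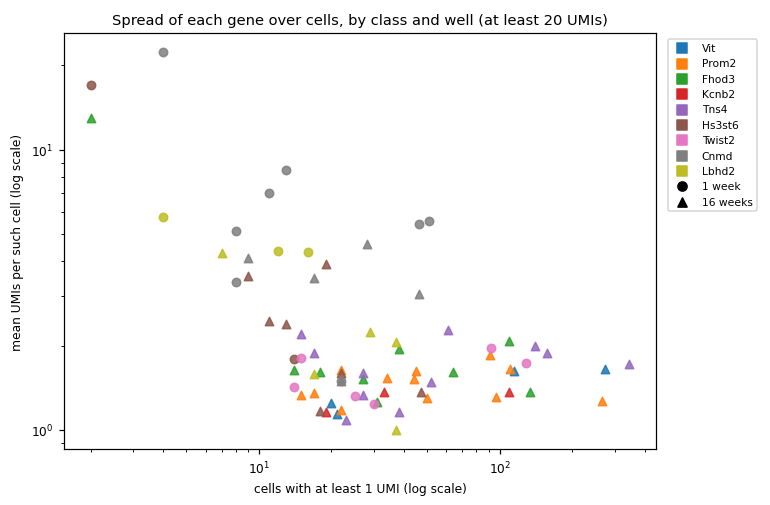
Mean UMIs per carrying cell against the number of carrying cells (both log axes), 1 point for each gene, TEC class and well with at least 20 UMIs, circles for 1 week and triangles for 16 weeks. Cnmd in 1-week intertypical TEC lies at 8.46 and 7 UMIs per carrying cell with 13 and 11 carriers, while Vit in older intertypical TEC lies near 1.6 with 115 and 274.

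Carriers of the gained genes overlapped in part. At 16 weeks 204 cells carried both Tns4 and Vit, 41.5% of Vit carriers and 21.1% of Tns4 carriers. In 251 cells Tns4 and Fhod3 were found together, 48.1% of Fhod3 carriers and 26.0% of Tns4 carriers. A further overlap, of Tns4 and Prom2, was found in 254 cells, 28.6% of Prom2 carriers and 26.3% of Tns4 carriers. Of all 3911 TEC at 16 weeks, 967 carried Tns4, 888 Prom2, 522 Fhod3 and 492 Vit. The overlaps were not adjusted for the depth or the class of the cells.

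The genes with profiles most like each member over the 34 combinations of class and library of at least 20 cells are given by Pearson r of log2(CPM + 10), as a description over points that share libraries. They were Jph2 (0.84) for Vit, Ptk2b (0.89) for Prom2, Plch2 (0.76) for Fhod3, Gm37138 (0.95) for Kcnb2, Fgf9 (0.88), Ccdc3 (0.88) and Prelp (0.88) for Tns4, and Gm48898 (0.74) and Chl1 (0.71) for Hs3st6. For the lost genes they were Palm3 (0.81) for Twist2, Cxcl11 (0.77) for Cnmd and Gm10851 (0.82) for Lbhd2.

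Relatives of the 9 genes were read from lists of the same families. Of 60 listed, 51 had enough UMIs to be tested, 8 were more than 4-fold higher and 1 lower, where the same rule called 14.0% of all genes higher and 1.58% lower, and their median log2 difference was 0.83 against 0.33 over all genes. Scx, a helix-loop-helix relative of Twist2 known from tendon, had 4.78 CPM at 1 week and 37.6 at 16 weeks, while Twist1 differed by 0.09 on the log2 scale. Coch and Matn1, with the same kind of domain as vitrin, had log2 differences of 2.57 and 2.85. Coch had 4.21 and 16.5 CPM in the 16-week wells, against 2.36 and 1.81 at 1 week, so 1 well moved its fold. Matn1 had 2.87 and 0.76 CPM in the 1-week wells and 16.1 and 13.0 in the 16-week wells. Fmn1 was the single formin of 12 past 4-fold, at 2.43. The other prominin Prom1 was higher by 1.69, and the tensins Tns1, Tns2 and Tns3 by 1.43, 1.04 and 0.83, none past 4-fold. Tnmd, the closest relative of Cnmd, was higher by 1.25, the opposite direction to Cnmd. Hs3st1 was past 4-fold at 2.59, as were the channel subunits Kcng3, Kcng4 and Kcns3, while Kcnv1 was lower. These channel subunits had few UMIs at the 2 ages. They were 9 and 38 for Kcng3, just past the limit at 2.02, 1 and 32 for Kcng4, 7 and 75 for Kcns3 and 32 and 6 for Kcnv1.

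Surface tags had not chosen the genes, and carriers were compared with other cells of the same class and well, for 30 gene and class combinations with at least 10 carriers in each well. Of 810 comparisons, 2 were higher and 6 lower by more than 1 on the log2 scale in both wells. Cnmd carriers among 1-week intertypical TEC had more CD49a, an integrin chain, by 1.23 and 1.64, and Twist2 carriers among 1-week proliferating TEC had more CD200 by 1.52 and 1.45. Hs3st6 carriers among 16-week cTEC had less Sca1 (-2.19 and -2.08), CD9 (-1.56 and -1.99), CD49a (-1.31 and -1.17), CD73 (-1.10 and -1.50), Epcam (-1.28 and -1.14) and UEA1 lectin (-1.78 and -1.30). The carriers were deeper in each of these combinations. The Hs3st6 carriers had medians of 29897 and 33872 UMIs against 22305 and 16314.5 in the other cTEC, and within depth quartiles 0 comparisons passed the limit in both wells in either direction. The 6 lower tags of the Hs3st6 carriers kept their sign in both wells there. In replicate 1 they were as large as before for Sca1 (-2.19) and CD9 (-1.51), and in replicate 2 they were smaller, at -0.67 and -0.95. As centred log ratios the same carriers had less Sca1 (-1.10 and -1.0), while CD9 (-0.90 and -1.01), CD49a (-0.59 and -0.15), CD73 (-0.58 and -0.69), UEA1 (-0.70 and -0.22) and Epcam (-0.22 and -0.06) were no longer past the limit. On that scale CD40 (1.48 and 1.45), MHCII (1.65 and 1.53) and CD274 (1.91 and 1.29) were higher. Within depth quartiles, on the log2 scale, they differed by 0.92 and -0.16, 0.49 and 0.10, and 1.05 and 0.08, respectively.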

How the data were processed

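Reads were aligned by the authors to mm10 with STARsolo 2.7.9a, per the labels, and cells with at least 2000 UMIs were kept. The deposited values were raw counts, whole-number UMIs per gene and cell in 1 table and tag counts per cell in another, neither normalised. The library of a cell was taken from the ending of its name. Of 55487 gene identifiers, 55141 matched a symbol (GENCODE M21). Doublets were scored per library (scrublet in scanpy 1.11.5). As the automatic limit marked 14 cells, the highest scores were removed at 0.8% per 1000 cells, 253 cells in all. Cells were corrected over library and depth by mutual nearest neighbours and clustered by the Louvain method (igraph 0.11.9) without the 9 genes, and clusters were named from marker lists under a rule tightened once the clusters had been seen. The genes, gene lists and tests were chosen with earlier results of these data known. Levels are counts per 1000000 UMIs of the same cells, and a gene was called past 4-fold, with counts under 3 taken as 3, where both wells of an age lay above both of the other and it had at least 20 UMIs over all TEC. Pairs of gene and class needed more than 3 UMIs at 1 age. The shares over all genes within a class needed at least 20 UMIs in that class. Intervals of CPM are exact Poisson, and those of log2 differences are exact binomial given the summed UMIs of both ages. Named genes were the 9, the 3 most alike to each and listed relatives, of which the text gives those that inform a member. Alternatives used edgeR 4.0.16 (TMM) and DESeq2 1.42.0 size factors, with no test. The scripts' counting was tested on simulated data. The labels name version 2 and the methods version 3 of the kit, which was not resolved.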

Additional observations from a re-analysis of the deposited data

Results flagged for a closer look

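The difference with age of Fhod3 went in opposite directions between TEC classes, with both wells of an age above both of the other in 4 of the 5 classes compared. In the fifth, the cluster led by Lypd8 and Saa3, the wells overlapped, at -0.52. Its log2 difference was 3.86 in cTEC, 3.69 in intertypical TEC (a lower bound, since 1-week cells had 0 UMIs) and 2.15 in proliferating TEC, and -1.60 in mature mTEC. Lbhd2 was higher at 16 weeks by 0.52 in cTEC, from 35 and 5 UMIs and with a counting interval of -1.19 to 1.88, which includes 0, and lower in intertypical TEC, at -4.16. Neither contrast between classes was tested, as each age was 1 sample. The Fhod3 value in mature mTEC rested on 16 and 23 UMIs, and 9 of the 11 UMIs of 1-week replicate 2 lay in 1 cell. In proliferating TEC 25 of the 26 UMIs of 16-week replicate 1 lay in 1 cell, and the older cTEC wells had 21.1 and 4.57 CPM.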

How the results depend on the processing

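Over all TEC 3095 genes were higher and 348 lower past 4-fold. With a 2-fold limit 6352 were higher and 1420 lower, and 2 of the 9 genes were lower in place of 1 (Cnmd joined Twist2). With TEC taken by an Epcam UMI without clustering 1508 genes were higher, and with cells thinned to 2000 UMIs 901. Without batch correction 8 pairs of gene and class were higher and 3 lower of 14 pairs in 2 classes, against 14 and 5 of 39 pairs in 5 classes, so the counts have different bases. Leaving out each well in turn left 37 to 49 pairs and gave 4 to 9 pairs lower, with 9 without 1-week replicate 1, and 11 to 17 higher. Lbhd2 over all TEC changed sign after thinning, to -0.27 from 0.34. Hs3st6 fell below 4-fold with TMM factors, with DESeq2 size factors, after thinning and without 1-week replicate 1, and the other 5 genes called higher and Twist2 kept their calls there. For tags, 5 were higher and 2 lower on the scale of centred log ratios (the Hs3st6 carriers lost 5 lower tags and gained 3 higher), depth quartiles gave 0 and 0, and a limit of 0.5 19 and 19, against 2 and 6. The causes were not tested. Leaving out the clusters led by haemoglobin or by Chga and Pth, or cells with shared barcodes, both chosen after seeing the data, changed no count of the 9 genes or of pairs. For pairs, leaving out the clusters could show no difference. They held 18 and 12 cells in 16-week replicate 1 and were not among the 5 classes compared. No paired analysis was possible because the replicate numbers name wells of different pools and no test was run. With 94 cTEC at 16 weeks and 143 intertypical TEC at 1 week, low levels there could not be resolved.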
